A study of Mus musculus with 4 samples.

Results

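The transcripts followed here are those of glycolysis and of the hypoxia-inducible programme, 37 genes of the 22911 that the array probes could be named for. They were taken by symbol from a list of the pathway, which was chosen with earlier results of these data known. Shares of all genes set beside the members below are therefore description and not a test. The list held Hif1a itself, 21 genes of glucose uptake, glycolysis and the lactate branch, and 15 other targets of hypoxia-inducible factor (HIF). All 37 were on the array, by 64 probes, and 35 stood well above background on each of the 4 arrays. P4ha2 missed that mark on 1 array and Egln3 on 3. The cells were RAW264.7, a mouse macrophage-like line. They carried either a control siRNA (SiControl) or a pool of siRNAs (SMARTpool) against Ruvbl2, were analysed 2 days after transfection, and had been given DMSO or LPS (lipopolysaccharide, the bacterial product sensed by Toll-like receptor 4). That makes 4 groups of 1 array each, named below by siRNA and treatment. The titles of the Ruvbl2 samples lack a letter of the target's name, which the series gives as RUVBL2. The dose and time of LPS were not stated in the sources used here. The protocols in the labels mention both electroporation and a lipid reagent, without saying which served here.

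HIF is a transcription factor of an oxygen-labile alpha subunit, such as HIF-1 alpha, and the stable subunit ARNT. With oxygen, prolyl hydroxylases of the EGLN family mark the alpha subunit for destruction through VHL. Without oxygen, or with inflammatory signals in macrophages, the alpha subunit accumulates and binds DNA at the core sequence RCGTG. Its targets include nearly every step of glycolysis and genes of vessel growth, mitophagy and restraint of growth. Macrophages given LPS are known to turn to glycolysis. RUVBL2, an ATPase of the AAA+ family, is a partner of RUVBL1 in complexes that remodel chromatin or help proteins assemble.

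Values are levels, the log2 processed signal of a gene's brightest probe minus the 75th percentile of its array, so that a difference of 1 is 2-fold. A difference counts as past the size rule at 2-fold. With 1 array per group nothing was replicated or tested, and precision is limited by the number of arrays. Spots of 300 probes, each printed 10 times, gave a technical SD of a log2 difference. It was 0.06 at levels above 3 and 0.11 from 1 to 3, from 1071 and 11 pairs of a probe and an array. It was 0.15 from -2 to 1, 0.27 from -4 to -2 and 0.49 below -4, from only 7, 23 and 11 such pairs. This SD covers spot noise within an array and not the spread between cultures. Ruvbl2 mRNA stood at 79.1% of control in DMSO and 75.8% in LPS by its brightest probe (log2 differences -0.34 and -0.40), and its partner Ruvbl1 differed by 0.00 and 0.14. Of 10 macrophage markers 9 were well above background on all arrays, while Epcam, Col1a1 and Kit were not on any. Over the marker lists of other cells, 1 of 6 fibroblast genes (Col1a2), 0 of 4 epithelial and 1 of 4 endothelial (Pecam1) passed on all arrays. Of T cell genes 2 of 3 did (Cd3e and Cd3d), of B cell genes 0 of 3 and of mast cell genes 0 of 3. The part of these genes in the results was not tested. Slide row 1 held the arrays of control siRNA and row 2 those of Ruvbl2 siRNA, so that row and siRNA cannot be told apart. E1A spike-in probes, which read RNA added before labelling, differed by a median of 0.26 between the siRNAs in DMSO and by 0.01 in LPS. Fewer cells of a kind and less RNA per cell cannot be told apart in such bulk RNA.

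With Ruvbl2 siRNA nearly the whole set read lower, in both treatments, and the HIF targets outside glycolysis by more than the glycolytic genes. In DMSO 34 of 37 members lay below 0, against 42.4% of all 13413 genes compared, and in LPS 34 of 36, against 48.7% of 13470. The members' median was -0.26 in DMSO, where that of all genes was 0.04, and -0.37 in LPS, where that of all genes was 0.01. Past 2-fold lower stood 5 members in DMSO (13.5% of them, against 0.544% of all genes) and 5 in LPS (13.9%, against 1.43%). No member was past 2-fold higher in either treatment, where 0.999% and 1.06% of all genes were. The glycolytic genes had medians of -0.20 and -0.32 in DMSO and LPS, and the other HIF targets of -0.34 and -0.80. In DMSO that gap was smaller than the one between brightest and dimmer probes of 11 glycolytic genes (medians of -0.11 and -0.32). Among dimmer probes alone, medians in DMSO and LPS were -0.32 and -0.31 for glycolysis (19 probes). For the other HIF targets they were -0.56 and -0.87 (5 probes of 4 genes). Scaling on the spike-ins moved the median of all genes in DMSO to -0.26 and that of the members to -0.56. That scaling shifts all genes of an array alike, so it cannot change the distance of -0.30 between them and says nothing of its stability.

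**Figure D1:**
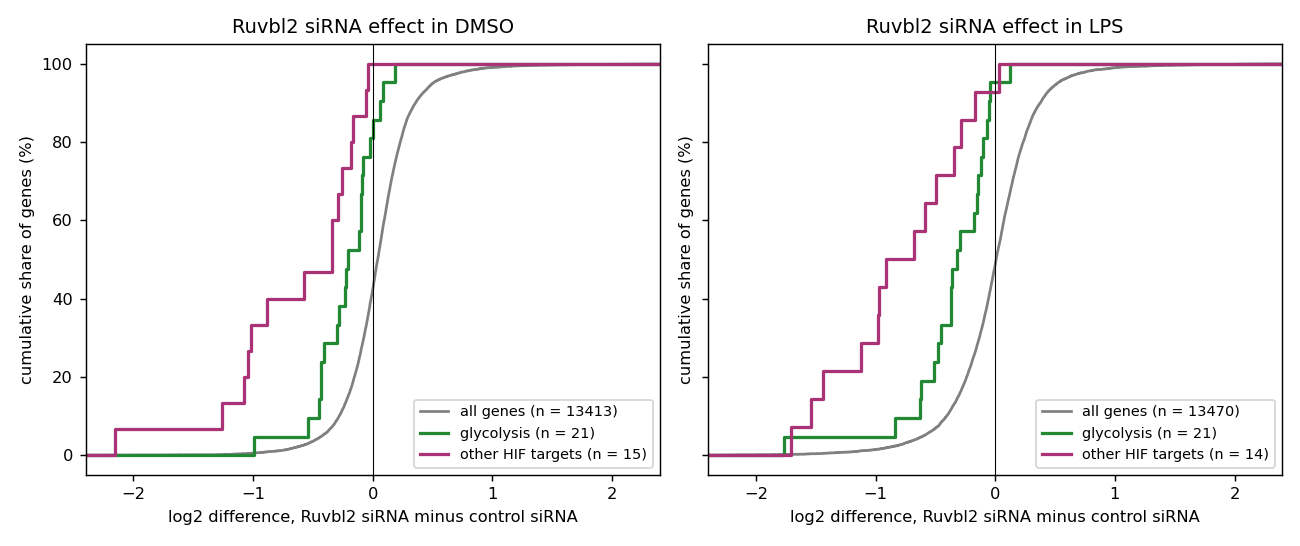
Cumulative share of genes (y axis, percent) against the log2 difference between Ruvbl2 and control siRNA (x axis), in DMSO on the left and LPS on the right, for all genes compared, 21 glycolytic genes and the other HIF targets. Both coloured curves lie to the left of the grey curve of all genes, the other HIF targets farther than glycolysis.

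By the brightest probe the siRNA groups did not overlap for most members, at times by less than the technical SD. The order of LPS and DMSO within a siRNA varied. Of 35 members well above background on every array, 25 were lower on both Ruvbl2 siRNA arrays than on either control siRNA array, which held for 10.2% of 12465 genes. These were 15 of 21 glycolytic genes and 10 of 13 other HIF targets. For Slc2a1, Pfkfb3, Aldoa, Gapdh, Pgam1, Eno1, P4ha1 and Higd1a the nearest arrays of the siRNAs lay closer than the technical SD. Gapdh read 9.3833 on its lower control array and 9.3814 on its higher Ruvbl2 siRNA array. The share of all genes takes in such margins too. Only Pfkfb4 had both Ruvbl2 siRNA arrays above both control siRNA arrays, against 15.4% of all genes. The DMSO and LPS comparisons share no array, and 31 of 35 members were below 0 in both, against 25.9% of all genes. Across those 35 genes, which are not independent replicates and share slide rows, Pearson's r between the differences was 0.75 and Spearman's rho 0.75, against 0.35 and 0.32 over all genes.

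**Figure D2:**
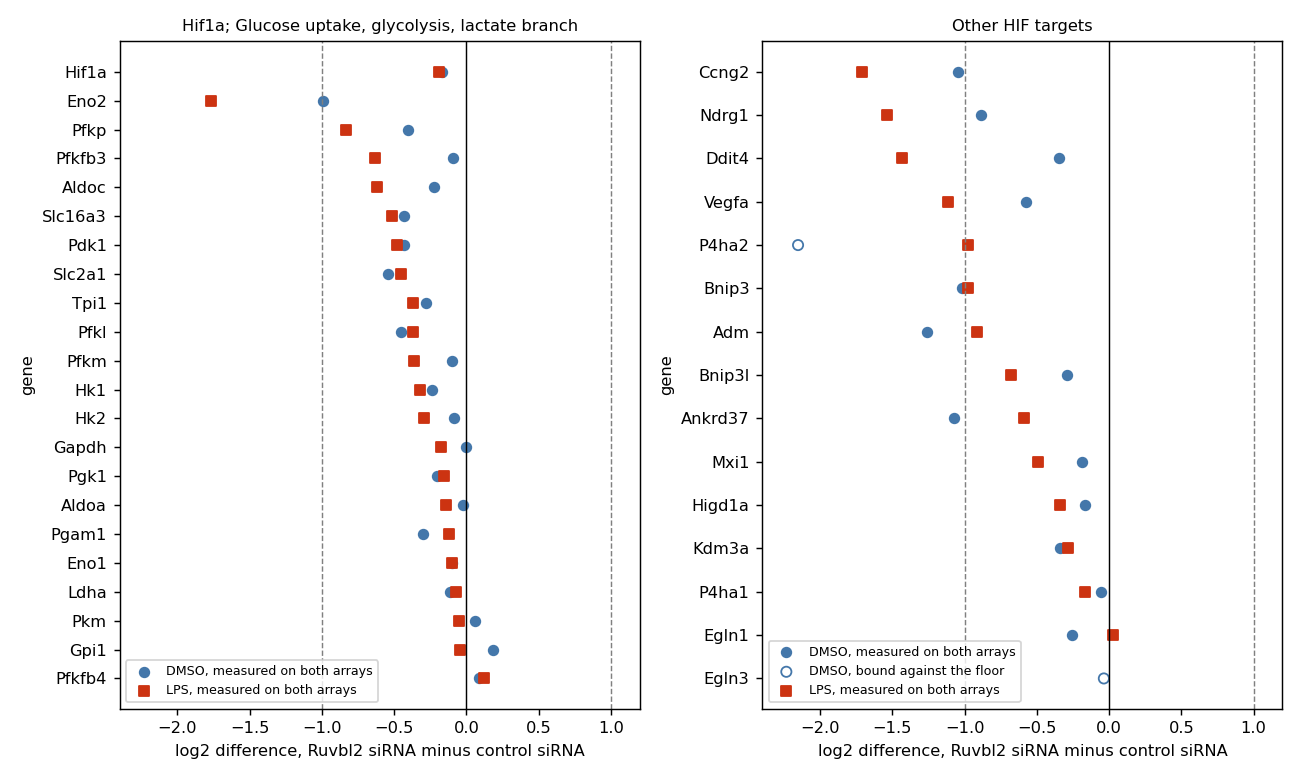
Log2 difference between Ruvbl2 and control siRNA (x axis) for each member (y axis), with Hif1a and the glycolytic genes on the left and the other HIF targets on the right. Circles are DMSO and squares LPS, open symbols are bounds against an array's floor, and dashed lines mark 2-fold. Most symbols lie left of 0, and Eno2 at -1.77 in LPS is the glycolytic gene farthest from it.

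Start-site windows are shown for members past 2-fold lower in the siRNA comparison in LPS, Eno2, Ccng2, Ddit4 and Vegfa (Ndrg1 was past it too), and for Aldoa and Pgk1, bright glycolytic genes that differed little. Each window is RefSeq sequence of build GRCm38.p6, 250 bases before to 50 after the first start listed for the gene, read 5′ to 3′ on the gene's strand. Capitals mark ACGTG or GCGTG, the letters of the HIF core, on either strand, so that CACGT and CACGC are the same letters read on the other strand. ACGTG overlaps the E-box CACGTG where a C precedes it, which was not so in these windows. Eno2 is at chr6:124769624-124769923 (minus strand), Ccng2 at chr5:93267323-93267622 (plus), Ddit4 at chr10:59951721-59952020 (minus), Vegfa at chr17:46032328-46032627 (minus), Aldoa at chr7:126800398-126800697 (minus) and Pgk1 at chrX:106186850-106187149 (plus).
Eno2: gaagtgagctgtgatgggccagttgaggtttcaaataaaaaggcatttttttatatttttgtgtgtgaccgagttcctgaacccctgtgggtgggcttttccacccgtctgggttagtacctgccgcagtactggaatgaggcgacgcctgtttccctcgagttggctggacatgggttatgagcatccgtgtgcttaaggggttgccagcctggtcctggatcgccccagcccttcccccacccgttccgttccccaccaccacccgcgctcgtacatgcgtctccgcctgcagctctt
Ccng2: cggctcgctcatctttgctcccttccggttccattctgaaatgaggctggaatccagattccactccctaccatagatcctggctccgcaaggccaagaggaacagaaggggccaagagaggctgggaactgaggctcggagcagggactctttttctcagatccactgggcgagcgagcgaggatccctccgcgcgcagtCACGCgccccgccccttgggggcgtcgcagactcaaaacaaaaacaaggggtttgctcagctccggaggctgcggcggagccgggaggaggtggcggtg
Ddit4: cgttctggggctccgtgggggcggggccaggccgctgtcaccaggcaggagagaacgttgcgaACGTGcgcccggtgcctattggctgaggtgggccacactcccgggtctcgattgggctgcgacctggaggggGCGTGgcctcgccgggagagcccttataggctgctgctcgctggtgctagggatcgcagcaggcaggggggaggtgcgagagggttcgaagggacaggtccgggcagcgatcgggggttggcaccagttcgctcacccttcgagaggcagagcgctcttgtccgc
Vegfa: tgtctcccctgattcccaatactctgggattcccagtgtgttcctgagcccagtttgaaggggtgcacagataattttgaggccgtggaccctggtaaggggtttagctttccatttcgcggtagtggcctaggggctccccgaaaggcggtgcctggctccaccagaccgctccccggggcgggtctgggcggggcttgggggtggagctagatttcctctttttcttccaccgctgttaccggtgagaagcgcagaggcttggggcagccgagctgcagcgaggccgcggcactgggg
Aldoa: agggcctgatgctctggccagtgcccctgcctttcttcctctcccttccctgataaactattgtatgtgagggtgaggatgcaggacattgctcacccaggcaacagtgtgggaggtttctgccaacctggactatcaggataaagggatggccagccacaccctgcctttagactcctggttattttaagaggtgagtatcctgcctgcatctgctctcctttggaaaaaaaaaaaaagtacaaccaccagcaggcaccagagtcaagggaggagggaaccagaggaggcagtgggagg
Pgk1: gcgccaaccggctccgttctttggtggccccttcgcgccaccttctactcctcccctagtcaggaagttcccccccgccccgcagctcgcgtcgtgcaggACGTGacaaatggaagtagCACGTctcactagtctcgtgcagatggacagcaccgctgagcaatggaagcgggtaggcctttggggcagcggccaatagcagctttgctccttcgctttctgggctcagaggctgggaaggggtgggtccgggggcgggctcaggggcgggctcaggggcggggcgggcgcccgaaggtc

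With positions counted from the start site, Ddit4 held ACGTG at -187 and GCGTG at -115, and Ccng2 held CACGC at -49. Pgk1, which differed by -0.15 in LPS, held ACGTG at -150 and CACGT at -131. The Eno2 window and the first windows of Vegfa and Aldoa held neither motif, which says only that these letters are not in these stretches. A further window of Vegfa held ACGTG and GCGTG, and the further windows of Aldoa held ACGTG, each counting both strands. Over all members with a window, 32 of 35 (91.4%) held at least 1 of the motifs in at least 1 window. ACGTG was held by 24 (68.6%). Of genes well above background on all arrays, 65.4% and 28.8% did, though genes differ in how many windows they have. Of 8 members with a window past 2-fold lower with Ruvbl2 siRNA in either treatment, 7 (87.5%) held a motif, no higher a share than over all members. By window, 77.4% of the members' 53 held a motif, against 60.1% of windows of genes well above background on all arrays and 43.8% of all windows. The shares for ACGTG alone were 52.8%, 25.0% and 19.6%. A match is a run of letters and not a binding site.

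Hif1a, the gene of the oxygen-regulated alpha subunit, read slightly lower with Ruvbl2 siRNA in both treatments. Its level was 3.51 with control siRNA in DMSO, 3.94 in LPS, 3.34 with Ruvbl2 siRNA in DMSO and 3.75 in LPS. The siRNA differences of -0.17 and -0.19 were about as large as each other and exceeded the technical SD of 0.06. The glycolytic medians were -0.20 in DMSO and -0.32 in LPS. With each siRNA the LPS array of Hif1a was the brighter (0.43 and 0.41). Egln1, a prolyl hydroxylase that is itself a HIF target, read 3.35 and 2.90 with control siRNA and 3.09 and 2.93 with Ruvbl2 siRNA, in DMSO and LPS. It was lower with LPS by 0.46 in control cells, and its siRNA difference was -0.26 in DMSO and 0.03 in LPS. Egln3, another prolyl hydroxylase, cleared the background mark only in DMSO with control siRNA and lay close to the floor there (-4.80, against a floor of -5.15), so that its differences are bounds of -0.04, in DMSO between the siRNAs and between LPS and DMSO in control cells. These bounds are counted with the members below 0, and nothing more is drawn from them. Among the other regulators, Egln2 stood higher with Ruvbl2 siRNA by 0.45 in DMSO and 0.45 in LPS. Vhl, which targets HIF for destruction, differed by -0.26 and -0.23. Hif1an, the asparaginyl hydroxylase that limits HIF activity, differed by -0.12 in DMSO and 0.65 in LPS, at levels from -1.34 to -0.69. Arnt differed by 0.24 and 0.13. Epas1, the HIF-2 alpha gene, was dim, at levels from -3.85 to -2.55, and differed by 0.87 and 0.34 against a technical SD of 0.27.

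At the entry to glycolysis no member was past 2-fold, and Slc2a1 and Hk1 read lower on both Ruvbl2 siRNA arrays. Slc2a1, which encodes a glucose transporter, had levels of 5.05 and 5.45 with control siRNA in DMSO and LPS. With Ruvbl2 siRNA Slc2a1 read 4.50 and 4.998. Its siRNA differences were -0.54 and -0.45, and both Ruvbl2 siRNA arrays lay below both control arrays, the nearest by less than the technical SD of 0.06. Hk1, the hexokinase of most tissues, went from 5.69 and 5.83 with control siRNA to 5.46 and 5.51, differences of -0.24 and -0.32. Hk2, the inducible hexokinase, read 3.15 and 3.59 with control siRNA and 3.06 and 3.29 with Ruvbl2 siRNA, so that its groups overlapped. Hk3, the myeloid hexokinase and not a member, differed by 0.18 in DMSO and -0.66 in LPS.

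The 3 phosphofructokinase genes, whose enzymes commit sugar to glycolysis, all had negative differences short of 2-fold, by unequal amounts. Pfkp, the platelet-type isoform, had levels of 4.72 and 5.05 with control siRNA and 4.31 and 4.22 with Ruvbl2 siRNA, and its LPS difference of -0.83 (1.78-fold lower) was the largest of the glycolytic genes after that of Eno2. Its other probe gave -0.85. Pfkl, the liver type, differed by -0.45 and -0.37, and Pfkm, the muscle type, by -0.10 (within its technical SD of 0.11) and -0.36. The pair of bifunctional enzymes that set the amount of an activator of phosphofructokinase parted. For Pfkfb3 the difference was -0.09 in DMSO and -0.63 in LPS, with levels of 2.93 and 3.08 with control siRNA and 2.84 and 2.44 with Ruvbl2 siRNA, although its dimmer probe gave -0.66 and -0.26. Pfkfb4 was the one member above 0 in both treatments, at 0.09 and 0.12, close to its technical SD of 0.11 and below 0 in DMSO with spike-in scaling (-0.21), where it was still above the median of all genes (-0.26).

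Further down the pathway Eno2 had the largest siRNA differences by the brightest probe, and Aldoc the next in LPS. Aldoa, the main aldolase, read 9.70 and 9.69 with control siRNA and 9.68 and 9.55 with Ruvbl2 siRNA. Aldoc, the brain-type aldolase, read 6.27 and 6.32 against 6.05 and 5.70, a difference of -0.62 in LPS (-0.70 by its other probe). Eno1, the common enolase, read 8.66 and 8.73 against 8.56 and 8.63, a difference of -0.10 in each treatment. Eno2, the neuron-type enolase and a HIF target, had levels of 1.55 and 1.95 with control siRNA and of 0.55 and 0.19 with Ruvbl2 siRNA. It was 1.99-fold lower in DMSO, just short of the size rule, and 3.40-fold lower in LPS, number 20 from the lowest of 12782 genes measured on both arrays. Eno3, the muscle type, which is no member, stood at 0.06 and 0.52. Within the enolases and within the aldolases the siRNA differences were unequal, without a replicate to give that inequality an error.

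The remaining steps, from the isomerase Gpi1 to pyruvate kinase, lay between 0.18 and -0.37. Tpi1, triose phosphate isomerase, read 7.92 and 7.97 with control siRNA and 7.64 and 7.60 with Ruvbl2 siRNA. Pgk1, which makes the first ATP, read 9.68 and 9.75 against 9.47 and 9.60, differences of -0.20 and -0.15. Pgam1, phosphoglycerate mutase, read 8.02 and 8.12 against 7.72 and 7.9952, differences of -0.30 and -0.12. All 3 genes had both Ruvbl2 siRNA arrays below both control arrays, by a small margin for Pgam1. Gapdh, a common reference gene, read 9.38 on both DMSO arrays and 9.48 against 9.31 in LPS. Pkm, pyruvate kinase, read 9.33 and 9.31 against 9.39 and 9.27, differences of 0.06 and -0.05. Gpi1, which turns phosphorylated glucose into phosphorylated fructose, read 8.27 and 8.34 against 8.45 and 8.29, differences of 0.18 and -0.04. Their arrays overlapped between the siRNAs, and in DMSO both genes were below 0 with spike-in scaling (-0.12 for Gpi1 and -0.24 for Pkm) but above the median of all genes on that scale (-0.26). Several of these genes have processed pseudogenes or close relatives, and how far a probe reads those is not known here.

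Dimmer probes of the abundant enzymes read lower than the brightest probe. Of 19 dimmer probes of 11 glycolytic genes, 17 gave a more negative siRNA difference in DMSO than the brightest probe of the same gene, and 14 did in LPS. Their medians were -0.32 and -0.31. The brightest probes of those 11 genes had medians of -0.11 and -0.17. The 6 Gapdh probes ran from -0.60 to -0.0019 in DMSO and from -0.31 to -0.17 in LPS. Ldha gave -0.11 by the brightest probe and -0.51 by the other in DMSO, and Pkm 0.06 and -0.23. No spot was saturated by the scanner's flag, and why the probes differ was not tested.

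**Figure D3:**
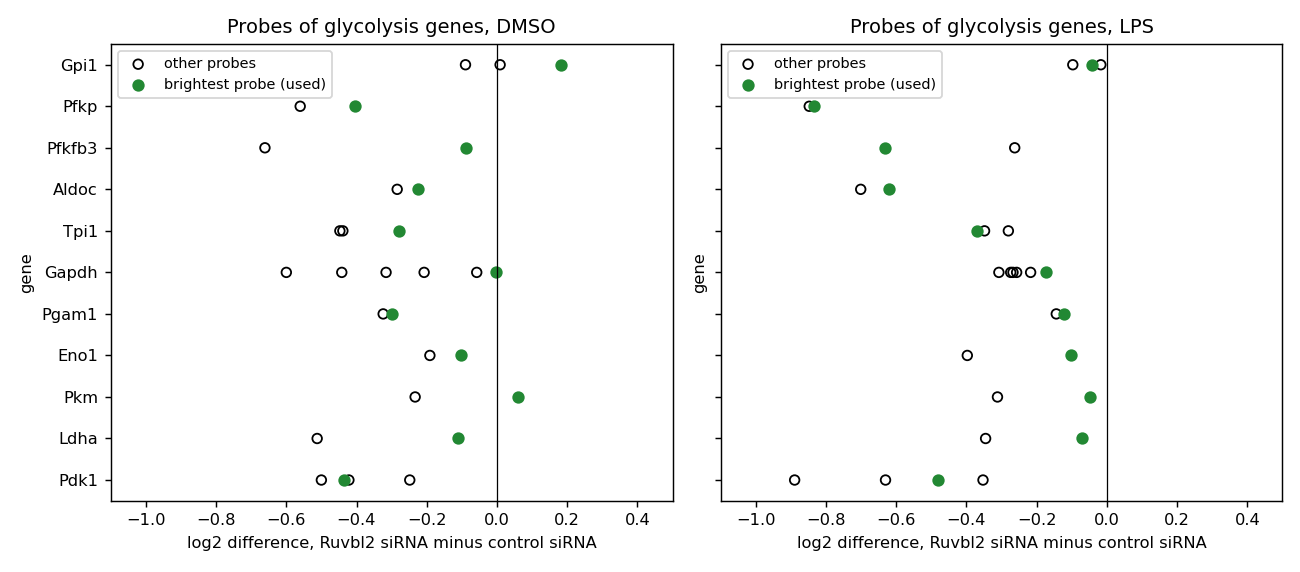
Log2 difference between Ruvbl2 and control siRNA (x axis) for each probe of the 11 glycolytic genes (y axis) that had several probes well above background on all arrays, in DMSO on the left and LPS on the right. Filled circles are the brightest probe, whose value is used elsewhere, and open circles the others. In DMSO 18 of the 19 open circles lie below 0.

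The branch that decides the fate of pyruvate was lower with Ruvbl2 siRNA at its transporter and its kinase. Slc16a3, the lactate exporter MCT4, had levels of 6.99 and 7.57 with control siRNA and 6.56 and 7.05 with Ruvbl2 siRNA, differences of -0.43 and -0.52. LPS stood above DMSO with each siRNA, by 0.58 and 0.50, so the Ruvbl2 siRNA LPS array lay above the control DMSO array. Pdk1, the kinase that shuts pyruvate out of the citric acid cycle, read 3.55 and 3.39 against 3.11 and 2.91, differences of -0.43 and -0.48, and its 3 dimmer probes ran from -0.50 to -0.25 in DMSO and from -0.89 to -0.35 in LPS. Ldha, lactate dehydrogenase A, read 9.35 and 9.35 against 9.24 and 9.28 by its brightest probe, differences of -0.11 and -0.07.

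Among the HIF targets outside glycolysis, 5 of 15 were past 2-fold lower in DMSO (33.3%, against 0.544% of all genes). In LPS 4 of 14 were (28.6%, against 1.43%). P4ha2 in DMSO was counted by its bound, and Ccng2 was the one past 2-fold in both. Ccng2, an unconventional cyclin that restrains the cell cycle, had levels of 1.43 and 1.86 with control siRNA and 0.39 and 0.15 with Ruvbl2 siRNA. The differences of -1.04 and -1.71 were close to those of its other probe (-1.15 and -1.76). With normexp correction and quantile normalization the DMSO difference came to -0.87, short of 2-fold. Ndrg1, a stress-induced gene tied to growth arrest and differentiation, had levels of 5.59 and 5.75 with control siRNA and 4.71 and 4.22 with Ruvbl2 siRNA. It was 1.85-fold lower in DMSO and 2.90-fold lower in LPS, number 39 from the lowest of 12782 genes. Ddit4, the mTORC1 inhibitor REDD1, read 2.68 and 3.62 with control siRNA and 2.34 and 2.19 with Ruvbl2 siRNA, a difference of -0.34 in DMSO and -1.44 in LPS. Mxi1, an antagonist of MYC, differed by -0.19 and -0.49.

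The secreted products were lower too. Vegfa, the vessel growth factor, had levels of 1.14 and 1.69 with control siRNA and 0.57 on both Ruvbl2 siRNA arrays. It was 1.49-fold lower in DMSO and 2.17-fold lower in LPS, and its other 2 probes well above background gave -0.71 and -0.56 in DMSO and -1.12 and -0.87 in LPS. Adm, which encodes adrenomedullin, a peptide that widens vessels, read 1.43 and 1.49 with control siRNA and 0.17 and 0.58 with Ruvbl2 siRNA. Its differences were -1.26 in DMSO, number 12 from the lowest of 12730 genes, and -0.91 in LPS. By the brightest probe, each Ruvbl2 siRNA array lay below each control siRNA array in both genes. The other 2 Vegfa probes overlapped between the siRNAs. They read 0.82 and -0.67 with Ruvbl2 siRNA in LPS, above their 0.48 and -0.70 with control siRNA in DMSO.

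Of the mitophagy receptors, Bnip3 differed the more. Bnip3 had levels of 6.53 and 6.34 with control siRNA and 5.50 and 5.36 with Ruvbl2 siRNA, which is 2.03-fold lower in DMSO and 1.96-fold lower in LPS. These differences of -1.02 and -0.97 fall on either side of the size rule by less than the technical SD. Its relative Bnip3l differed by -0.29 and -0.68. Ankrd37, an ankyrin repeat gene strongly induced by HIF, read 4.39 and 3.01 with control siRNA and 3.32 and 2.42 with Ruvbl2 siRNA. It was 2.10-fold lower in DMSO and 1.51-fold lower in LPS, and was also lower with LPS under each siRNA, so that the control LPS array lay below the Ruvbl2 siRNA DMSO array.

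The remaining targets differed less or were near the floor. P4ha1, a collagen prolyl hydroxylase subunit, differed by -0.05 and -0.17. P4ha2, its relative, was dim, with levels of -2.68 and -3.57 with control siRNA and -4.54 with Ruvbl2 siRNA in LPS. It was not well above background with Ruvbl2 siRNA in DMSO, which makes it at least 4.45-fold lower there (-0.68, short of 2-fold, by normexp and quantile), and it differed by -0.98 in LPS against a technical SD of 0.49. Higd1a, a mitochondrial protein gene, differed by -0.17 and -0.34. Kdm3a, a histone demethylase, read 2.47 and 1.82 with control siRNA and 2.13 and 1.53 with Ruvbl2 siRNA, differences of -0.34 and -0.29.

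**Figure D4:**
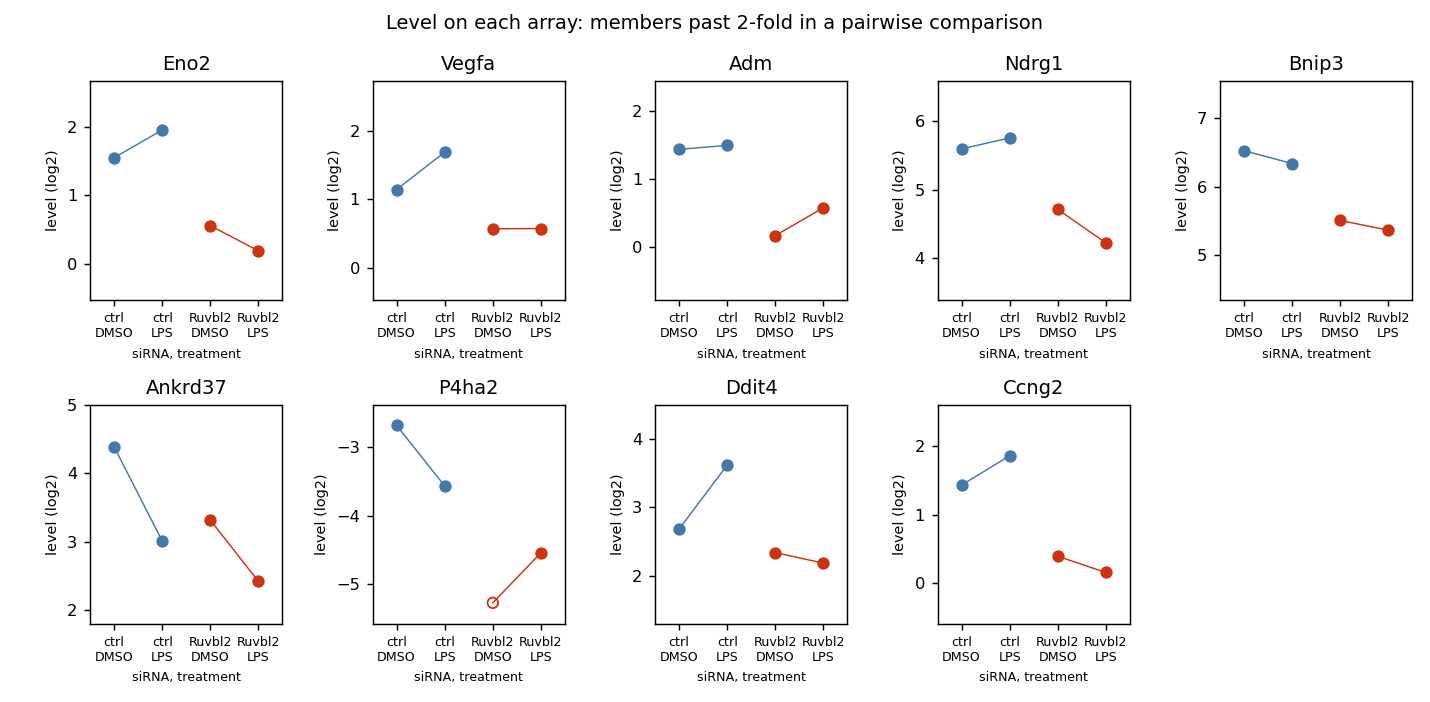
Level (y axis, log2 signal relative to the 75th percentile of the array) on each of the 4 arrays (x axis: control siRNA in blue, Ruvbl2 siRNA in red, DMSO then LPS) for the 9 members past 2-fold in a pairwise comparison. Every panel spans the same number of log2 units, each point is 1 array and the open circle was not well above background. In every panel but that of Ankrd37, both red points lie below both blue points.

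In control cells the set differed little between LPS and DMSO. Each LPS comparison shares an array with each of the siRNA comparisons, so their values are not independent. Against DMSO, 0 of 37 members were past 2-fold higher, where 5.74% of all genes were, and Ankrd37 alone was past 2-fold lower (2.60-fold, where 2.21% of all genes were). The glycolytic genes had a median of 0.07 and ran from -0.30 for Pfkm to 0.58 for Slc16a3, with 15 of 21 above 0, as were 6752 of all 13508 genes. The other HIF targets had a median of 0.06 and ran up to 0.94 for Ddit4, which was 1.91-fold higher. Hif1a (0.43), Hk2 (0.44), Slc2a1 (0.40), Eno2 (0.40) and Ccng2 (0.43) stood above 0 by several times their technical SD. The other Ccng2 probe gave 0.0003. The value for Vegfa also depended on the probe: it was 0.55 by the brightest probe and 1.46 and 0.90 by the other probes well above background. Kdm3a differed by -0.65.

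With Ruvbl2 siRNA the same comparison gave 0 members past 2-fold in either direction by the brightest probe, against 4.14% of all genes higher and 2.05% lower. Vegfa again depended on the probe, with 0.0037 by the brightest and 1.05 and 0.59 by the others well above background. The medians were -0.07 for glycolysis and -0.16 for the other HIF targets. Slc16a3 (0.50), Slc2a1 (0.49), Hif1a (0.41) and Adm (0.41) were again above 0. Ddit4 was at -0.16, Ndrg1 at -0.49, Eno2 at -0.37, Pfkfb3 at -0.39 and Ccng2 at -0.24. With spike-in scaling, which moved the median of all genes to 0.34, these medians were 0.29 and 0.20.

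The difference between these LPS responses, from all 4 arrays, was past 2-fold for Ddit4 alone. Ddit4 stood 0.94 higher with LPS in control cells and 0.16 lower with Ruvbl2 siRNA, a difference of -1.09. That is past the size rule for 1 of 35 members (2.86%, against 1.16% of all genes in that direction, and 0.521% in the other), and it was -0.80 with spike-in scaling. Eno2 (-0.77), Ccng2 (-0.66), Ndrg1 (-0.65), Vegfa (-0.54) and Pfkfb3 (-0.54) followed, though the dimmer Pfkfb3 probe gave 0.40. Ankrd37 (0.48) and Adm (0.35) lay on the other side. The median over members was -0.11, near that of all genes (-0.03), and with spike-in scaling it was 0.18 while that of all genes was 0.26. The lower levels with Ruvbl2 siRNA were present in both treatments.

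**Figure D5:**
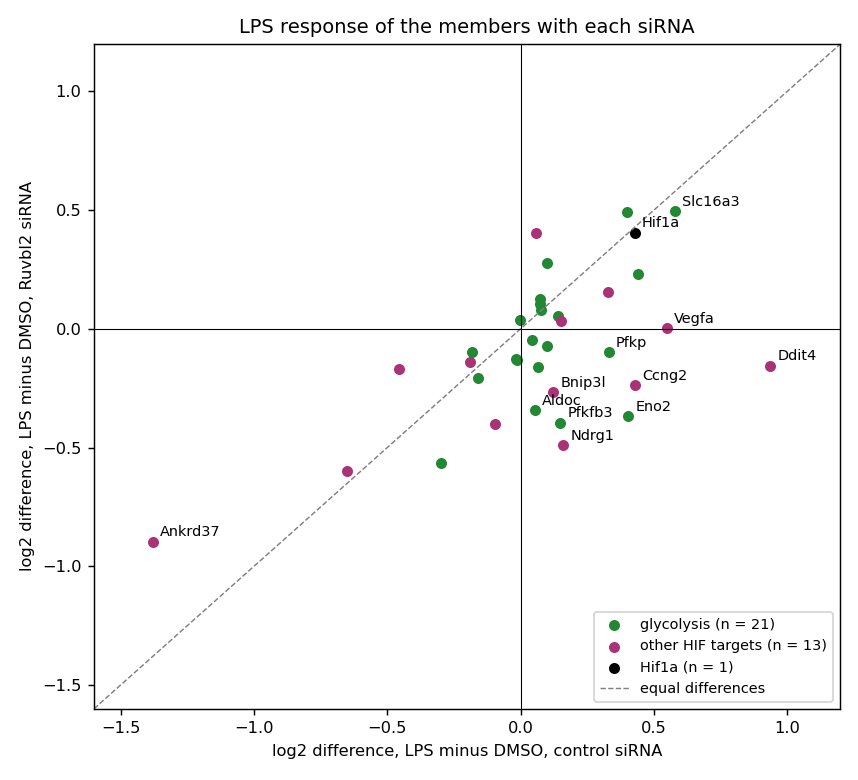
Log2 difference between LPS and DMSO with control siRNA (x axis) and with Ruvbl2 siRNA (y axis) for the 35 members measured on all arrays, each point a gene. The dashed line marks equal differences. Ddit4, Eno2, Ccng2 and Ndrg1 lie to the right of 0 and below it, and Hif1a and Slc16a3 lie close to the dashed line.

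Neighbouring parts of the pathway were read from lists beyond the members. Of 40 compared genes of HIF control and further hypoxia-inducible genes, 29 (72.5%) were below 0 in each treatment. Of all genes, 42.4% were in DMSO and 48.7% in LPS. The medians of the 40 were -0.15 in DMSO and -0.23 in LPS. Past 2-fold lower were 1 in DMSO (2.5%, against 0.544% of all genes) and 3 in LPS (7.5%, against 1.43%), and 0 were past it higher. Ero1a, an oxidoreductase of protein folding, had levels of 4.38 and 5.54 with control siRNA and 3.80 and 4.36 with Ruvbl2 siRNA, and was 2.27-fold lower in LPS. Stc2, a secreted stanniocalcin, was 2.26-fold lower in LPS, and Nos2, the inducible nitric oxide synthase, 2.05-fold. Hmox1, heme oxygenase 1, was 2.19-fold lower in DMSO and differed by 0.14 in LPS. Both Ruvbl2 siRNA arrays lay below both control arrays for 13 of 39 of these genes (10.2% of all genes), among them Gys1, Gbe1 and Pgm1 of glycogen metabolism, Ak4 and Car9. They lay above for 4 of 39 (15.4% of all genes), Egln2, Crebbp, Elob and Tfrc.

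Genes of other routes of sugar metabolism had medians near 0 or above it. Of 14 compared isoform and gluconeogenesis genes, 11 were above 0 in DMSO (57.6% of all genes were), with a median of 0.11. In LPS 18 were compared, 9 of them above 0 (51.3% of all genes were), with a median of 0.03. Of these 2 were past 2-fold lower (11.1%, against 1.43% of all genes) and 1 higher (5.56%, against 1.06%). Pck2, mitochondrial phosphoenolpyruvate carboxykinase, was 2.74-fold lower. Slc2a4, the insulin-responsive transporter, was at least 2.5-fold lower and Pklr, the liver pyruvate kinase, at least 8.97-fold higher. Slc2a4 and Pklr were each well above background on 1 array alone. Of 8 compared genes of the pentose phosphate pathway, 5 were above 0 in DMSO and 7 in LPS, with medians of 0.17 and 0.06, and 0 were past 2-fold. G6pdx, which commits glucose to that pathway, differed by 0.28 and 0.01. Of 12 compared genes that bring pyruvate into mitochondria, 6 lay above 0 and 6 below in each treatment, with medians of -0.02 and -0.0039, and 0 were past 2-fold. The medians above 0 in DMSO lie below 0 on the spike-in scale, where the median of all genes was itself -0.26. Values in these lists were described and not tested against the members.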

How the data were processed

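RNA of 4 RAW264.7 samples was hybridized in 1 colour to an Agilent mouse array, 1 array per group, on 1 slide scanned on 1 day. Per the file headers, the deposited intensity values were made with Agilent Feature Extraction 11.5.1.1 (11.0 per the submitters' processing notes): processed signal is spot brightness after background subtraction, linear and without normalization across arrays. The series' deposited intensity table held equal values at all 62976 spots. Other deposited columns used were flags of the scanner software. Depth has no counterpart on arrays.

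Outlier spots were left out (2 values of the members' probes) and spots of a probe averaged. Probes were named by unversioned RefSeq accession through a GRCm38.p6 gene table, 32994 of 56605, while the array design rests on mm9, so probes are given no positions. A gene took its probe with the highest mean level. Where 1 array was dim, the difference was taken against the higher of its value and the array's floor, set by its dimmest probe that was well above background (a bound). The members and lists were chosen with earlier results of these data known. Alternatives were normexp (offset 50, on the median signal, as no mean signal column was used) with quantile normalization in limma 3.58.1, quantile or cyclic loess alone, other centrings, spike-in scaling, the deposited table, mean of probes, other filters and a 1.5-fold rule. The chain was tested on simulated arrays. Values were given in full for members past 2-fold in a pairwise comparison, Hif1a and the brightest gene of each step, and from the other lists for at most 2 genes a direction, those with the largest differences measured past 2-fold. Others are named as examples chosen after their values were seen. Python 3.11.15 and R 4.3.3 were used.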

Additional observations from a re-analysis of the deposited data

Results flagged for a closer look

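For 9 members the LPS difference lay above 0 with control siRNA and below 0 with Ruvbl2 siRNA, each by more than the technical SD. These are single arrays, so the difference between the siRNAs was not tested. Opposite signs of any size, in either order, were read for 12 of 35 members (34.3%), against 25.0% of all 12465 genes. The share of all genes that also pass the technical SD was not computed. The difference of the LPS responses was -1.09 for Ddit4, -0.77 for Eno2, -0.66 for Ccng2, -0.65 for Ndrg1, -0.54 for Pfkfb3, -0.43 for Pfkp, -0.39 for Bnip3l, -0.23 for Gpi1 and -0.17 for Gapdh. Other probes did not always show the pattern. With control siRNA the other probe gave 0.0003 for Ccng2, -0.03 for Bnip3l and -0.48 for Pfkfb3, and with Ruvbl2 siRNA it gave 0.01 for Pfkp. Of the 5 other Gapdh probes 4 were above 0 with Ruvbl2 siRNA, as was 1 Gpi1 probe. On the spike-in scale the value with Ruvbl2 siRNA was above 0 for Ddit4, Ccng2, Pfkp, Bnip3l, Gpi1 and Gapdh, though that scale raises all genes alike. Ddit4, Eno2 and Ndrg1 had 1 probe each. With groups of 1 array, no array could be set against others of its group.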

How the results depend on the processing

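No paired analysis was possible because each group was 1 array, with no replicate numbers to pair by and no replicate to leave out. A fit with treatment as the block, which would take the interaction as error, was not run. Most members lay lower with Ruvbl2 siRNA under every alternative run: 33 to 37 of 37 lay below 0 in DMSO (32 of 35 with a level of -2 needed), and 31 to 34 of 35 to 37 in LPS. The share of all genes below 0 ran from 32.9% with no filter to 86.9% with spike-in scaling in DMSO, so the 37 of 37 on the spike-in scale says little, and from 46.0% to 50.7% in LPS. In DMSO the glycolysis median was -0.28 with quantile normalization, -0.27 with cyclic loess, -0.27 with the mean of probes and -0.50 with spike-in scaling. There the median of the other HIF targets was -0.65 with spike-in scaling, -0.41 with the mean of probes and -0.57 with no filter. In LPS it was -0.63 with normexp and quantile normalization and -0.68 both with a level of -2 needed and with no filter. By 1.5-fold, 13 members were lower in LPS. No share of all genes was computed for the 1.5-fold rule, so the member counts by it, here and below, have no background beside them. For LPS with control siRNA, 1 member was higher with spike-in scaling (866 of all genes were) and 1 by 1.5-fold. With no filter 2 members were lower (794 of all genes were), and 3 by 1.5-fold. The glycolysis median there was 0.15 with spike-in scaling, and that of the other HIF targets 0.16, -0.0368 with the mean of probes and 0.12 with a level of -2 needed. For LPS with Ruvbl2 siRNA, 2 members were lower by 1.5-fold. The glycolysis median was 0.0382 with normexp and quantile, 0.0320 with quantile, 0.0312 with cyclic loess and 0.29 with spike-in scaling, which gave 0.20 for the other HIF targets. For the difference of LPS responses, 2 members were higher with no filter (922 of all genes were). With spike-in scaling 0 were lower (60 of all genes were), and 4 were lower by 1.5-fold. The glycolysis median was 0.0076 with normexp and quantile, -0.0211 with quantile, 0.0164 with cyclic loess and 0.20 with spike-in scaling. That of the other HIF targets was -0.10 with quantile and 0.12 with spike-in scaling. The cause was not tested. Of all calls in DMSO, 64.7% were higher, 35.1% with normexp and quantile and 24.0% with spike-in scaling. The shares were 42.6% and 25.5% with normexp for the siRNAs in LPS, 66.9% and 90.3% with spike-ins for LPS with Ruvbl2 siRNA, and 31.1% and 79.1% for the difference of responses. The counts of all genes past 2-fold were 134 higher and 73 lower in DMSO, and 13 and 24 with normexp and quantile. Naming by a platform annotation table was not run, as that table was not used here.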
